A study of Mus musculus with 3 samples.

Results

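The genes described here are 10 genes of the Wnt pathway, taken by symbol from the 17633 genes with at least 1 read in the germ layers of E7.5 mouse embryos. They comprise 4 secreted Wnt antagonists (*Sfrp1*, *Sfrp2*, *Sfrp5* and *Frzb*) and 6 genes that respond to beta-catenin (*Axin2*, *Lef1*, *Tcf7*, *Sp5*, *Nkd1* and *Lgr5*). All 10 were found in each of the 3 libraries. The study separated endoderm, mesoderm and epiblast from the embryonic region of ICR mouse embryos by enzyme treatment and dissection, pooled RNA over many embryos and sequenced 1 library per germ layer. All embryos were untreated, and the epiblast sample holds the neuroectoderm and the primitive streak together. With 1 library per germ layer no difference below has a replicate check.

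In the canonical Wnt pathway, a secreted Wnt protein binds a Frizzled receptor and an Lrp co-receptor, the complex that destroys beta-catenin is held back, and beta-catenin enters the nucleus and acts through factors of the Tcf and Lef family. Secreted Frizzled-related proteins carry a Frizzled-like domain and bind Wnt proteins outside the cell. Several direct targets of the pathway feed back on it, so that their transcripts are widely read as a sign of the response. At gastrulation Wnt signals are known for their part in forming the primitive streak and mesoderm, and secreted antagonists for limiting them at the anterior side.

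Reads counted on genes summed to 41.7 M (M as in Mb) for endoderm, 40.8 M for mesoderm and 42.7 M for epiblast. The endoderm markers *Sox17* and *Foxa2*, the mesoderm markers *Foxf1* (listed as *Foxf1a*) and *Kdr* and the epiblast markers *Sox2* and *Pax6* were each highest in the library of their own layer. The summed RPKM (reads divided by gene length and library total) of each pair of markers in the other libraries was between 0.857% and 3.47% of that in its own. The endoderm library also held transcripts of other cell types. All 6 visceral endoderm markers (*Afp*, *Ttr*, *Amn*, *Cubn*, *Apoa1* and *Rhox5*) were highest there, with a summed RPKM of 4983 against 7.36 in mesoderm and 4.81 in epiblast. All 5 node and axial mesoderm markers (*Noto*, *Chrd*, *Shh*, *Foxj1* and *Nog*) were highest in endoderm too, at a summed RPKM of 85.2, 6.83 in mesoderm and 18.5 in epiblast. The 4 primitive streak markers (*T*, *Mixl1*, *Eomes* and *Fgf8*) were all highest in epiblast, at a summed RPKM of 275.3 against 106.9 in endoderm and 99.9 in mesoderm. Trophoblast markers summed to 27.4 (endoderm), 7.56 (mesoderm) and 2.65 (epiblast), of which *Plac1* and *Esx1* were highest in endoderm, *Elf5* and *Ascl2* were highest in epiblast and *Tpbpa* had no reads. Primitive blood markers summed to 6.92, 4.51 and 0.776, with *Gata1* and *Runx1* highest in endoderm, *Hbb-bh1* found in mesoderm alone (37 reads) and *Hba-x* without reads. In such bulk samples, fewer cells that express a gene and less RNA per cell cannot be told apart.

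**Figure D1:**
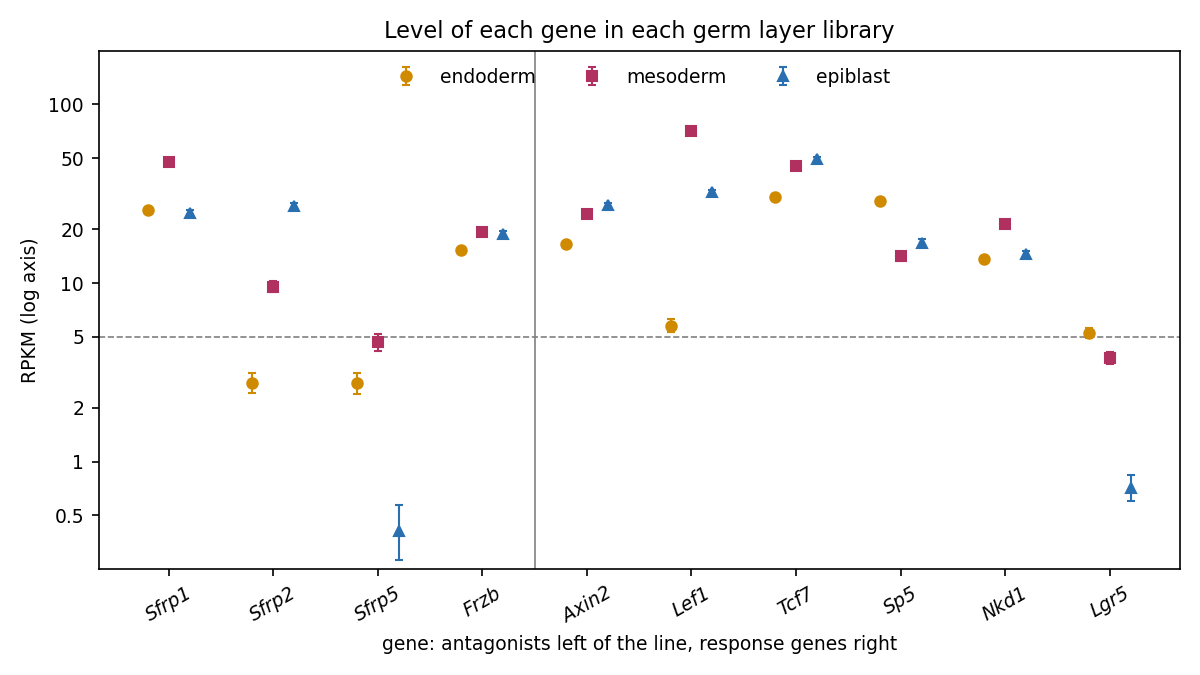
RPKM of the 10 genes (log axis) in the endoderm (circles), mesoderm (squares) and epiblast (triangles) libraries, 1 library each. Bars are 95% exact Poisson intervals of the read count and cover counting error only, and the dashed line marks an RPKM of 5. *Lef1* has the widest separation between libraries and *Frzb* the narrowest, and *Sfrp5* stays under the dashed line in all 3 libraries.

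Among the 4 antagonists, *Sfrp1* was the most abundant in endoderm and mesoderm and *Sfrp2* in epiblast, by RPKM. *Sfrp1* (ENSMUSG00000031548, chromosome 8 from 23411502 to 23449632 of GRCm38, plus strand) had an RPKM of 25.8 in the endoderm, 47.8 in the mesoderm and 24.8 in the epiblast, from 4712, 8570 and 4650 reads. Mesoderm stood apart from the other libraries, whose ratio of 1.04 has a counting interval (95%, exact) from 0.997 to 1.08. The *Sfrp1* level in mesoderm was 1.85-fold that in endoderm (1.79 to 1.92) and 1.93-fold that in epiblast (1.86 to 2.0). Both ratios lay beyond counting error and just under the study's Fold Change criterion of 2.

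*Sfrp2* followed another order, with the lowest level in endoderm and the highest in epiblast. *Sfrp2* (chromosome 3, 83766321 to 83774316, plus strand) had 230 reads in the endoderm, 780 in the mesoderm and 2316 in the epiblast, at an RPKM of 2.76, 9.54 and 27.1. No pair of libraries overlapped within counting error. Epiblast was 9.82-fold above endoderm (8.57 to 11.3) and 2.84-fold above mesoderm (2.62 to 3.08), and mesoderm was 3.46-fold above endoderm (2.98 to 4.02). All 3 differences met the criteria that the study set for differential expression, which are RPKM>5 in at least 1 library of the pair, Fold Change>2 and FDR<0.001. Behind the FDR is the Audic and Claverie exact test of reads, which compares 2 libraries and not the germ layers as conditions. With Fold Change>4 the pairs that include mesoderm were no longer called. edgeR's exact test, given a biological coefficient of variation of 0.2, no longer called *Sfrp2* between mesoderm and epiblast. An annotated non-coding gene on the other strand, *Gm26771*, overlaps the exons of *Sfrp2*, and the sources used here do not state whether counting used the strand.

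*Sfrp5* had the lowest level of the 4 antagonists in mesoderm and epiblast, was level with *Sfrp2* in endoderm within counting error, and was the only one of the 10 genes that did not reach RPKM>5 in any. *Sfrp5* (chromosome 19, 42197971 to 42202252, minus strand) had 218 reads in the endoderm, 361 in the mesoderm and 33 in the epiblast, at an RPKM of 2.75, 4.65 and 0.407. Reads covered 86.7% of the gene length in the endoderm, 94.0% in the mesoderm and 53.1% in the epiblast. The epiblast level was the lowest, with mesoderm 11.4-fold above it (8.0 to 16.9) and endoderm 6.77-fold above it (4.68 to 10.1). The RPKM criterion kept *Sfrp5* out of the calls, and with RPKM>1 in its place both ratios were called. Markers of the anterior endoderm moved in part with *Sfrp5*. The summed RPKM of *Cer1*, *Hhex*, *Lefty1*, *Lhx1* and *Gsc* was 164.7 in the endoderm, 67.0 in the mesoderm and 4.40 in the epiblast, with 3 of the 5 highest in endoderm and *Lefty1* and *Gsc* under an RPKM of 1 in every library. Their part in the *Sfrp5* values was not tested.

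*Frzb*, also known as Sfrp3, differed least between the layers. *Frzb* (chromosome 2, 80411970 to 80447625, minus strand) had an RPKM of 15.3 in the endoderm, 19.4 in the mesoderm and 18.8 in the epiblast, from 1857, 2315 and 2339 reads. Mesoderm and epiblast differed by 1.03-fold, with an interval from 0.976 to 1.10 that includes 1. Endoderm was lower by 1.27-fold against mesoderm (1.20 to 1.35) and by 1.23-fold against epiblast (1.16 to 1.31).

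The make-up of the family differed between the layers, as did its sum. The summed RPKM of the 5 genes of the family, with *Sfrp4* included, was 46.6 in the endoderm, 81.6 in the mesoderm and 71.2 in the epiblast. *Sfrp1* made up 55.3% of it in the endoderm, 58.6% in the mesoderm and 34.9% in the epiblast. *Sfrp2* made up 5.92%, 11.7% and 38.1%, and so passed *Sfrp1* in epiblast. *Frzb* took 32.8%, 23.8% and 26.4%, and *Sfrp5* 5.91%, 5.70% and 0.572%. *Sfrp4* was near absent, with 2 reads in the endoderm, 14 in the mesoderm and 6 in the epiblast.

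**Figure D2:**
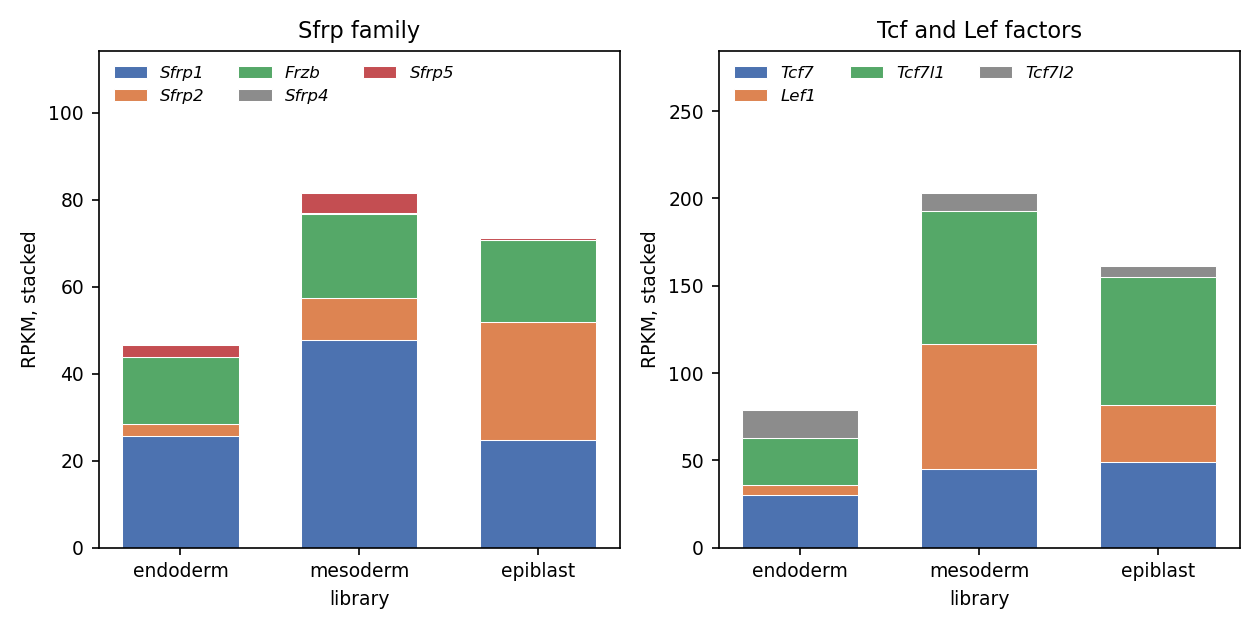
Stacked RPKM of the Sfrp family (left) and of the 4 Tcf and Lef factors (right) in the endoderm, mesoderm and epiblast libraries, 1 library each and without error bars. *Sfrp2* is a thin segment in endoderm (2.76) and the largest in epiblast (27.1), and *Lef1* is a thin segment in endoderm (5.78) and a large one in mesoderm (71.4).

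Among the response genes, *Lef1* showed the widest range. *Lef1*, which encodes a DNA-binding partner of beta-catenin and is itself a target of the pathway, lies on chromosome 3 from 131110471 to 131224356 on the plus strand. It had 592 reads in the endoderm, 7178 in the mesoderm and 3383 in the epiblast, at an RPKM of 5.78, 71.4 and 32.2. The libraries were ordered mesoderm, epiblast, endoderm, and no counting intervals overlapped. Mesoderm was 12.4-fold above endoderm (11.4 to 13.5) and 2.22-fold above epiblast (2.13 to 2.31), and epiblast was 5.57-fold above endoderm (5.11 to 6.09). All 3 pairs met the criteria. Mesoderm against epiblast was no longer called with Fold Change>4, or by edgeR's exact test given a biological coefficient of variation of 0.2. *Lef1* in endoderm stood at 8.09% of its mesoderm level, while the mesoderm markers *Foxf1a* and *Kdr* together stood there at 0.857% of theirs. Other genes with a role in mesoderm varied in endoderm. Near *Lef1*, *Tbx6* stood at 9.75% of its highest level, *Rspo3* at 8.50%, *Dll1* at 8.49% and *Msgn1* at 7.19%. Of these, *Msgn1* was highest in epiblast, where *Tbx6* and *Dll1* stood at 88.2% and 63.3%. Further genes highest in mesoderm stood in endoderm at 0.798% (*Wnt2*), 4.45% (*Wnt2b*), 15.7% (*Apcdd1*), 25.6% (*Wnt5a*) and 26.0% (*Ccnd1*). The part of mesoderm cells in the endoderm level of *Lef1* was not tested. The exons of *Lef1* overlap those of *Gm43352* on the other strand.

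*Tcf7*, which encodes a related factor, was spread far more evenly. *Tcf7* (chromosome 11, 52252371 to 52283014, minus strand) had an RPKM of 30.3 in the endoderm, 45.2 in the mesoderm and 49.4 in the epiblast, from 2824, 4133 and 4723 reads. Epiblast and mesoderm differed by 1.09-fold (1.05 to 1.14), and endoderm lay 1.49-fold under mesoderm (1.42 to 1.57) and 1.63-fold under epiblast (1.56 to 1.71). None of these reached a Fold Change of 2. By RPKM, which allows genes to be compared, *Lef1* was at 0.191 of *Tcf7* in the endoderm, 1.58 in the mesoderm and 0.652 in the epiblast.

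The other factors of the family differed between the layers too. *Tcf7l1*, known mainly as a repressor of Wnt targets in early embryos, had an RPKM of 26.6 in the endoderm, 76.2 in the mesoderm and 73.4 in the epiblast, and met the criteria against endoderm in both pairs, at 2.86-fold for mesoderm and 2.76-fold for epiblast. *Tcf7l2* had 16.5, 10.4 and 6.58, and met them between endoderm and epiblast at 2.51-fold. Of the summed RPKM of the 4 factors (79.2 in the endoderm, 203.2 in the mesoderm and 161.6 in the epiblast), *Tcf7* held the largest share in endoderm (38.3%), and *Tcf7l1* in mesoderm (37.5%) and epiblast (45.4%). *Lef1* held 7.30% in the endoderm, 35.1% in the mesoderm and 19.9% in the epiblast. *Tcf7l2* held 20.8% in endoderm and at most 5.12% in the other libraries.

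*Sp5* went in the other direction and was highest in endoderm. *Sp5*, which encodes a zinc finger factor of the Sp family that acts on Wnt target genes, lies on chromosome 2 from 70474923 to 70477729 on the plus strand. It had 2517 reads in the endoderm, 1209 in the mesoderm and 1508 in the epiblast, at an RPKM of 28.8, 14.1 and 16.8. Endoderm was above both other libraries, and epiblast was slightly above mesoderm at 1.19-fold (1.11 to 1.29). The ratio of endoderm to mesoderm was 2.04 (1.91 to 2.19), which met the criteria by a small margin, and that of endoderm to epiblast was 1.71 (1.60 to 1.83), which did not. With TMM scaling the log2 ratio of endoderm to mesoderm was 1.14 in place of 1.03. edgeR's exact test, given a biological coefficient of variation of 0.2, no longer called *Sp5*. The node and axial mesoderm markers above were likewise highest in endoderm but stood in epiblast at 21.8% and in mesoderm at 8.01% of their endoderm level, against 58.4% and 49.0% for *Sp5*. The part of these and of the visceral endoderm cells in the *Sp5* values was not tested.

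The sequence before the start sites of the 10 genes was read for the core letters of a Tcf and Lef site, as the pathway's factors bind such sites. The motifs CTTTGA and CTTTGT were searched on both strands in the 250 bases before each RefSeq start (GRCm38.p6), and 12 such windows were held for 8 of the 10 genes (not for *Sfrp1* and *Lgr5*). Matches were found for 3 genes, *Sp5*, *Lef1* and *Frzb*. Of all 32851 windows of that length, 13.8% held CTTTGA, 16.5% held CTTTGT and 27.6% held either, so a match is common. The *Sp5* window (chr2:70474673-70474922, plus strand) is shown because it held the most, 4 matches that do not overlap. It had CTTTGA at 204 and 104 bases and CTTTGT at 212 bases before the start on the strand of the gene, and CTTTGT at 221 bases on the other strand. *Lef1* held none in the windows of its 3 more upstream starts and 3 in that of its most downstream start (chr3:131156044-131156293, plus strand), which lies inside the gene in an intron. *Axin2* (chr11:108920099-108920348, plus strand) is shown for contrast as a window without a match, with a GC content of 69.2% against 46.0% for *Sp5* and 44.8% for *Lef1*. Matches are in capitals, and a match on the other strand reads TCAAAG or ACAAAG here.
Sp5: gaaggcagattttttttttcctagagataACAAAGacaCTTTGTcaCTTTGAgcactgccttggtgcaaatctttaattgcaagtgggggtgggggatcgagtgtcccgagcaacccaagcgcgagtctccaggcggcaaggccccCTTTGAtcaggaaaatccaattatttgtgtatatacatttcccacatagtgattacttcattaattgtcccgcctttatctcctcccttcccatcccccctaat
Lef1: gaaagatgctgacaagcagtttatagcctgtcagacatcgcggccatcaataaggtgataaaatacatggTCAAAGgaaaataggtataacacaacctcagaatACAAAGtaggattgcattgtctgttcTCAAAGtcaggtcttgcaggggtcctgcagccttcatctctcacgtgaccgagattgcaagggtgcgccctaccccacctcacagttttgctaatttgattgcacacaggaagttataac
Axin2: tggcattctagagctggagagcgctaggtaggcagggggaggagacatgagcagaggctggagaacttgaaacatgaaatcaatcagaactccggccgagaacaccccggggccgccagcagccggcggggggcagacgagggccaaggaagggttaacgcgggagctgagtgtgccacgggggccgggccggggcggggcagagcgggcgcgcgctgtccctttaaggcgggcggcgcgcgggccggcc
*Frzb* had a single match, 95 bases before its RefSeq start on the other strand, inside an exon of *Frzb* in the GENCODE annotation. It is given with 12 bases on each side.
Frzb: tcccctgaaaacTCAAAGccttctcggaag
These matches describe letters in the windows, and binding was not measured.

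*Axin2*, which encodes a scaffold of the beta-catenin destruction complex and is a feedback target of the pathway, was lowest in endoderm. *Axin2* (chromosome 11, 108920349 to 108950783, plus strand) had 2933 reads in the endoderm, 4270 in the mesoderm and 4977 in the epiblast, at an RPKM of 16.5, 24.4 and 27.2. Epiblast and mesoderm lay close, at 1.11-fold (1.07 to 1.16), and endoderm was 1.48-fold under mesoderm (1.42 to 1.56) and 1.66-fold under epiblast (1.58 to 1.73). None of the 3 pairs met the criteria. The exons of *Axin2* overlap those of *Gm11670* on the other strand. *Axin1*, the paralog that is not known as a Wnt target, had an RPKM of 21.0, 24.3 and 27.2, so that *Axin2* made up 43.9% of the RPKM of both genes in the endoderm, 50.1% in the mesoderm and 50.1% in the epiblast.

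*Axin2* and *Tcf7* had nearly the same profile over the layers. The RPKM of *Axin2* was 0.543 of that of *Tcf7* in the endoderm, 0.540 in the mesoderm and 0.551 in the epiblast, so that the highest of these ratios was 1.02 times the lowest. Of the 45 ratios between 2 of the 10 genes this was the least variable. The next was *Sfrp1* to *Nkd1* at 1.29 times, the median was 7.11 times and the most variable was *Sfrp2* to *Lgr5* at 72.5 times. The pair was singled out after its values were seen, and 3 libraries give no test of such a likeness.

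*Nkd1*, which encodes an inhibitor of Dishevelled induced by Wnt signals, was highest in mesoderm. *Nkd1* (chromosome 8, 88521354 to 88594884, plus strand) had an RPKM of 13.5 in the endoderm, 21.5 in the mesoderm and 14.5 in the epiblast, from 2434, 3790 and 2663 reads. Mesoderm was 1.59-fold above endoderm (1.51 to 1.67) and 1.49-fold above epiblast (1.42 to 1.56). Endoderm and epiblast differed by 1.07-fold (1.01 to 1.13), with epiblast higher as deposited and endoderm higher after TMM or median-of-ratios scaling. Its paralog *Nkd2* was far lower, with 24 reads in the endoderm, 278 in the mesoderm and 165 in the epiblast, so that *Nkd1* held at least 91.1% of their summed RPKM in each library.

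*Lgr5*, a receptor for R-spondins and a Wnt target in many stem cells, was highest in endoderm and very low in epiblast. *Lgr5* (chromosome 10, 115450311 to 115587780, minus strand) had 1030 reads in the endoderm, 731 in the mesoderm and 143 in the epiblast, at an RPKM of 5.25, 3.80 and 0.711. Reads covered 99.1%, 99.0% and 82.9% of the gene length. Endoderm was 7.38-fold above epiblast (6.19 to 8.86), which met the criteria with an endoderm RPKM just over 5, and 1.38-fold above mesoderm (1.26 to 1.52). Mesoderm was 5.34-fold above epiblast (4.46 to 6.44), but with neither library over an RPKM of 5 this ratio could not be called. The anterior endoderm markers had the same order of the layers in their summed RPKM (164.7, 67.0 and 4.40), with *Cer1* at 137.9 in endoderm. The visceral endoderm, trophoblast and primitive blood sums had this order too. In mesoderm and epiblast *Lgr5* stood at 72.4% and 13.5% of its endoderm level. The anterior endoderm sum stood at 40.7% and 2.67%, and the visceral endoderm sum at 0.148% and 0.0965%. For trophoblast these were 27.6% and 9.70%, and for primitive blood 65.2% and 11.2%. The part of any of these cells in the *Lgr5* values was not tested. The paralog *Lgr4* had an RPKM of 5.47 in the endoderm, 3.35 in the mesoderm and 4.86 in the epiblast, and its ratio of endoderm to epiblast was 1.12 (1.03 to 1.22). *Lgr5* therefore made up 48.7% of the RPKM of the 3 receptors *Lgr4*, *Lgr5* and *Lgr6* in the endoderm, 52.5% in the mesoderm and 11.6% in the epiblast.

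The 6 response genes did not share 1 order of the layers. Of the 6, *Sp5* and *Lgr5* were highest in endoderm, *Lef1* and *Nkd1* in mesoderm, and *Axin2* and *Tcf7* in epiblast. In endoderm *Axin2*, *Lef1*, *Tcf7* and *Nkd1* had their lowest level as deposited, *Sp5* had its lowest in mesoderm and *Lgr5* in epiblast. For *Nkd1* the lowest library was epiblast after TMM or median-of-ratios scaling. The ratio of the highest to the lowest library was 12.4 for *Lef1*, 7.38 for *Lgr5*, 2.04 for *Sp5*, 1.66 for *Axin2*, 1.63 for *Tcf7* and 1.59 for *Nkd1*. It was 1.55 at the median of the 9135 genes that passed RPKM>5 somewhere, so that *Axin2*, *Tcf7* and *Nkd1* lay close to that median.

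**Figure D3:**
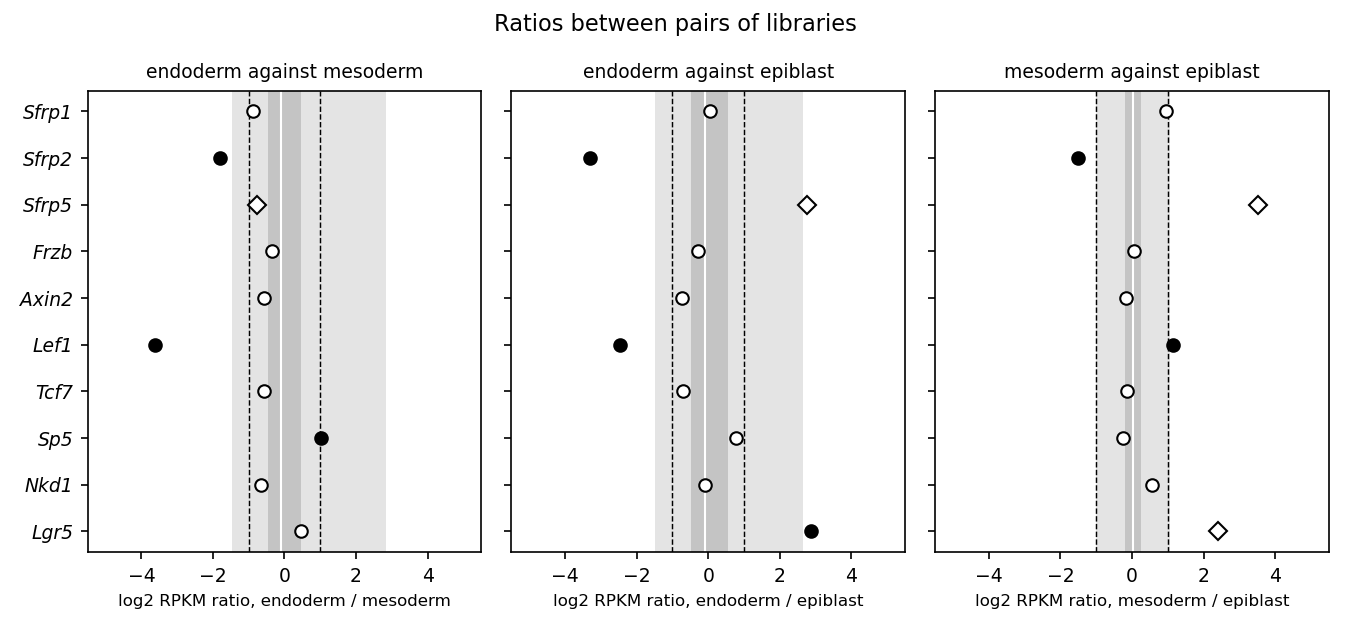
Log2 ratio of RPKM of each gene between endoderm and mesoderm, endoderm and epiblast, and mesoderm and epiblast, 1 library each. Filled circles met the criteria, open circles did not, and open diamonds had no library over an RPKM of 5. The light band holds the middle 90% and the dark band the middle 50% of all genes tested in that pair, the white line is their median, and the dashed lines mark a Fold Change of 2. *Lef1* and *Sfrp2* lie outside the light band in every panel.

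Between endoderm and mesoderm 9 of the 10 genes had RPKM>5 in at least 1 library and 3 met the criteria, against 23.0% of the 8867 genes tested. *Sp5* was higher in endoderm, where 14.4% of all genes tested were called, and *Sfrp2* and *Lef1* were higher in mesoderm, where 8.56% were. Between endoderm and epiblast 9 were tested and 3 met the criteria, against 24.6% of all 8843 genes. *Lgr5* was higher in endoderm (15.7% of all genes) and *Sfrp2* and *Lef1* were higher in epiblast (8.94%). Between mesoderm and epiblast 8 were tested and 2 met the criteria, against 10.3% of 8340 genes, with *Lef1* higher in mesoderm (5.30% of all genes) and *Sfrp2* higher in epiblast (5.02%). In any pair, 4 of the 9 genes tested were called, against 31.5% of all 9135. The shares called were 33.3% in both pairs with endoderm and 25% between mesoderm and epiblast, and over so few genes, in pairs that share libraries, nothing is read from their distance to the background. The median log2 ratio of the genes tested was -0.58 for endoderm over mesoderm, -0.30 for endoderm over epiblast and -0.04 for mesoderm over epiblast. Over all genes tested these medians were -0.10, -0.08 and 0.02. The calls depend on the variation between independent pools of embryos, which 1 library per germ layer cannot show. Given a biological coefficient of variation of 0.4, the exact test of edgeR called 0 of the genes in each pair. Of those tested, 2, 3 and 0 had an unadjusted p under 0.05. Over all genes tested in each pair it called 4.36%, 3.74% and 0.719%, so nothing is read from 0 among so few genes.

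The other genes of the pathway were read from lists by role. Of 76 such genes 74 had reads, 54 passed the RPKM criterion in a pair, and 33 of these met the criteria in at least 1 pair. Between endoderm and mesoderm 23 of 51 tested were called (23.0% of all genes), 7 higher in endoderm (14.4%) and 16 in mesoderm (8.56%). Between endoderm and epiblast 27 of 50 were called (24.6% of all genes), 9 higher in endoderm (15.7%) and 18 in epiblast (8.94%). Between mesoderm and epiblast 14 of 50 were called (10.3% of all genes), 8 higher in mesoderm (5.30%) and 6 in epiblast (5.02%). The lists hold genes known to mark single germ layers, so their share of calls is not that of a neutral list.

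Other secreted or surface inhibitors differed in where they were highest. *Dkk1*, which blocks the Lrp co-receptors, had an RPKM of 36.1 in the endoderm, 8.43 in the mesoderm and 3.79 in the epiblast and met the criteria in all 3 pairs. *Cer1*, a secreted inhibitor of Nodal and BMP proteins related to frog Cerberus, had 137.9, 47.4 and 0.659. *Apcdd1*, a membrane inhibitor and Wnt target, was highest in mesoderm with an RPKM of 20.3, against 3.17 in endoderm and 4.13 in epiblast. *Notum*, an enzyme that inactivates Wnt proteins and is a feedback target, was highest in epiblast at 5.48, against 1.18 and 1.96. Among the R-spondins, the ligands of the Lgr receptors, *Rspo3* had an RPKM of 3.07 in the endoderm, 36.1 in the mesoderm and 12.9 in the epiblast and met the criteria in all 3 pairs. Of the 10 cytoplasmic transducers tested, 0 met the Fold Change criterion in any pair, whereas 31.5% of all 9135 genes were called in a pair. Among the 10 was *Ctnnb1* for beta-catenin itself (207.4 in endoderm and 261.7 in mesoderm, with epiblast 1.45-fold above endoderm). The largest ratio, 1.96 between endoderm and mesoderm, was that of *Dvl1*, a Dishevelled gene named after its value was seen.

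The further response genes were a list of 12. Between endoderm and mesoderm 10 were tested and 6 called, all higher in mesoderm, where 8.56% of all genes tested were. Of those not called, *T* had 93.7 in endoderm and 74.8 in mesoderm, and *Sp8*, with neither library over an RPKM of 5, had 3.22 and 0.984. Between endoderm and epiblast 8 of 10 were called higher in epiblast (8.94% of all genes) and 1, *Myc*, higher in endoderm (15.7%). Between mesoderm and epiblast 11 were tested, with 2 called higher in mesoderm (5.30% of all genes) and 3 in epiblast (5.02%). *Cdx1*, a homeobox gene of the posterior embryo, had an RPKM of 3.06 in the endoderm, 15.9 in the mesoderm and 48.7 in the epiblast. *Tbx6*, needed for paraxial mesoderm, had 3.77, 38.7 and 34.1. *Msgn1*, another factor of presomitic mesoderm, had 2.79, 35.1 and 38.9. *Cdx4* had 0 reads in endoderm, which allows up to 3, against 408 in mesoderm and 118 in epiblast. These genes mark the streak and mesoderm as well as the response, and the difference between them and the 6 response genes above was not tested. Of the Wnt ligands 18 of 19 were found with reads and 6 passed the RPKM criterion. Of these, *Wnt2*, *Wnt2b* and *Wnt5a* were highest in mesoderm, at an RPKM of 8.53, 12.7 and 14.3, and *Wnt3a*, *Wnt5b* and *Wnt8a* in epiblast. *Wnt3a* was at 0.774 in the endoderm, 1.38 in the mesoderm and 13.9 in the epiblast. *Wnt3*, needed for the streak to form, was under an RPKM of 5 throughout, at 1.60, 2.14 and 3.12. Apart from *Wnt3* and *Wnt3a*, the ligands were named after their values were seen.

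**Figure D4:**
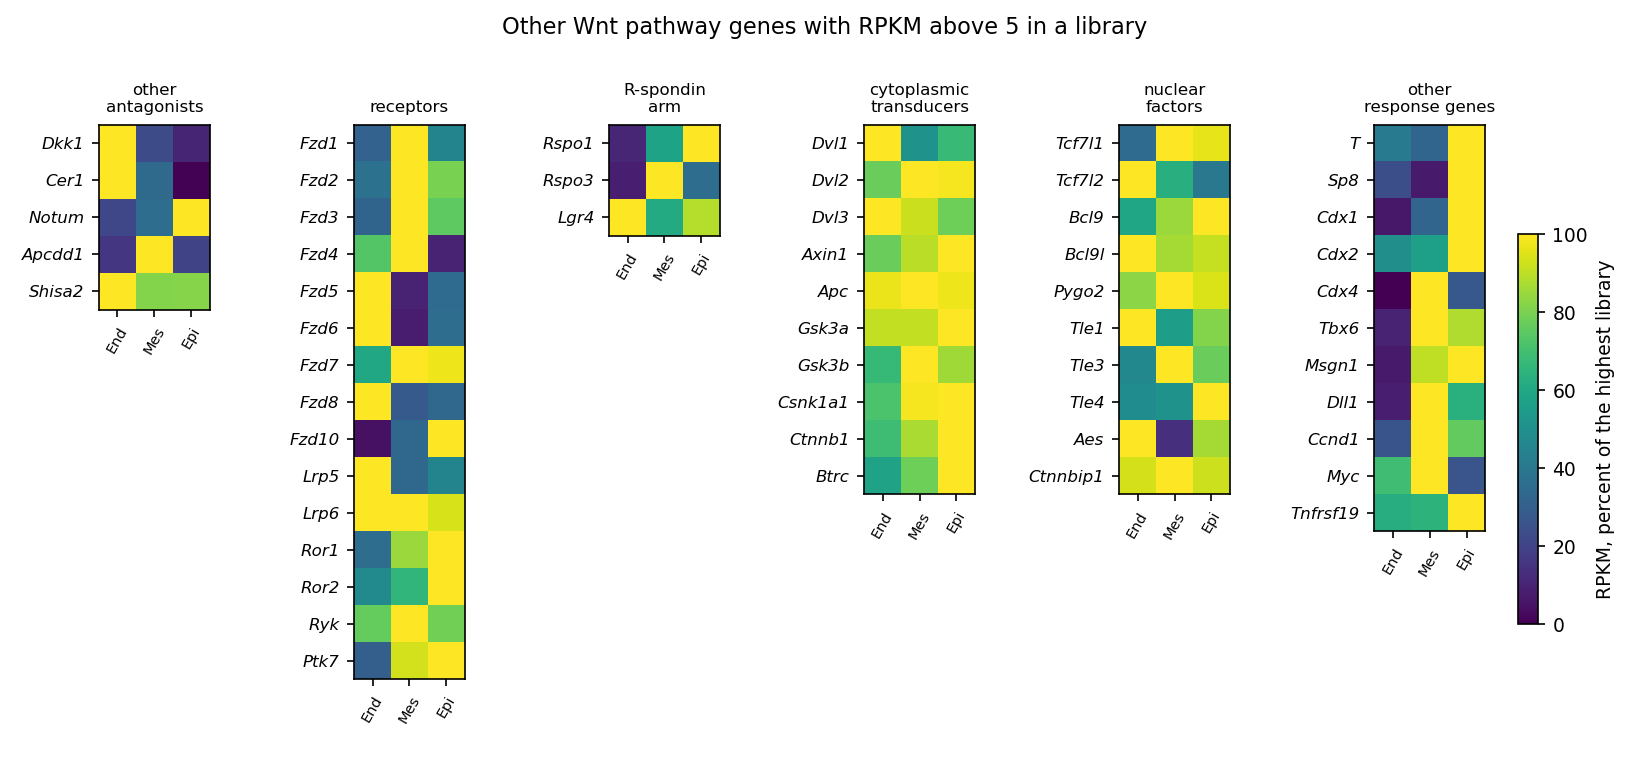
RPKM of the other Wnt pathway genes with RPKM>5 in at least 1 library, in endoderm (End), mesoderm (Mes) and epiblast (Epi), as a percent of the highest of the 3 libraries (colour). The 10 cytoplasmic transducers differ by less than a Fold Change of 2, whereas *Cdx4*, *Cer1* and *Fzd10* are near 0 in 1 library.

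Genes with the most similar profile were found by the distance between the shares of summed RPKM in the 3 libraries, among genes with RPKM>5. For *Lef1* the nearest were *Adcy3* (0.635 in the endoderm, 8.52 in the mesoderm and 4.0 in the epiblast) and *Cbln1* (0.604, 5.70 and 2.43), at distances of 1.18 and 2.32 percentage points. For *Sfrp2* the nearest were *Phf15* and *Pmaip1* (1.08 and 2.28 points), for *Lgr5* *Sh3bp5* and *Akap2* (1.99 and 2.44 points), for *Sp5* *Wdfy1* (0.507 points) and for *Sfrp1* *Tpm4* and *Baz1a* (1.26 and 1.47 points). Within a distance of 0.02 on the scale of shares there was 1 gene each for *Lef1*, *Sfrp2* and *Lgr5*, 5 for *Sfrp1*, 27 for *Nkd1*, 28 for *Sp5*, 213 for *Axin2*, 227 for *Tcf7* and 465 for *Frzb*. These numbers count the genes near each profile, and whether a likeness over 3 libraries is informative for any of them was not tested.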

How the data were processed

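At E7.5, RNA of each germ layer was sequenced as 1 paired-end library. Per the file headers, the authors deposited for each gene the gene length, a count of reads that map uniquely, the RPKM and, as a percent, the share of the length covered. The deposited RPKM equals the count divided by length and by the total of counted reads, with a largest relative difference of 2.03e-07. The submitters' processing notes name TopHat, mm10 and mm9. The study states TopHat and GRCm38 for splicing, and the counter and annotation of the gene table are not given in the sources used here. The genes and lists were chosen with earlier results of these data known.

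Counts were used as deposited, and genes not listed in a library were set to 0 reads, which allows up to 3. Each pair of libraries was compared across all genes with a read in either, with a two-sided test (Audic and Claverie, exact) and Benjamini-Hochberg adjustment. Percent of genes called refers to genes with RPKM>5 in at least 1 library of the pair. With 1 library per group, no quasi-likelihood model of edgeR could be fitted. Intervals of counts are exact Poisson and those of ratios exact conditional binomial, at 95%, and cover counting error only. All 10 genes were named. From each other list the called genes with the largest ratios in a pair (up to 4), the paralogs and partners of the 10 genes, and the 2 nearest profiles by Euclidean distance of the shares could be named. One such profile is not reported here. Alternatives were TMM scaling (edgeR), median-of-ratios scaling (DESeq2), RPKM>1, no RPKM minimum, Fold Change>4 and edgeR's exact test with an assumed coefficient of variation of 0.2 or 0.4. The test was tested on simulated data. Positions are from GENCODE M21 (GRCm38) and sequences from RefSeq (GRCm38.p6). Python 3.11.15, SciPy 1.17.1, R 4.3.3, edgeR 4.0.16 and DESeq2 1.42.0 were used. Microarray, qPCR and splicing data were not analysed here.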

Additional observations from a re-analysis of the deposited data

How the results depend on the processing

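The 10 genes gave 3 calls for endoderm against mesoderm, 3 for endoderm against epiblast and 2 for mesoderm against epiblast, and TMM and median-of-ratios scaling left these numbers as they were. Both scalings shifted the log2 ratios of endoderm to mesoderm and to epiblast by 0.11. With them the log2 ratio of *Nkd1* in endoderm over epiblast turned from -0.09 to 0.016. With RPKM>1 or no RPKM minimum, 4 genes were called between mesoderm and epiblast, *Sfrp5* and *Lgr5* being added. Of all genes tested in that pair, 15.9% and 16.2% were called. With Fold Change>4, 1 gene was called between endoderm and mesoderm and 0 between mesoderm and epiblast, and the other pathway genes numbered 12 for endoderm against mesoderm, 12 against epiblast and 5 for mesoderm against epiblast. Without an RPKM minimum, 23 other pathway genes were called between mesoderm and epiblast in place of 14. edgeR's exact test, given a coefficient of variation of 0.2, called 0 of the 10 genes between mesoderm and epiblast. Of those tested, 3 had an unadjusted p under 0.05. The RPKM criterion applied to these counts and kept out *Sfrp5*, which had the smallest FDR of the 10 in that pair, and *Lgr5*. The test called 13 other pathway genes for endoderm against epiblast and 7 for mesoderm against epiblast. Of all genes tested in these pairs it called 14.0% and 5.31%. At 0.4 it called 0 of the 10 in every pair, and 1, 3 and 1 other pathway genes, in the same order of pairs as above. Over all genes tested the shares called at 0.4 were 4.36%, 3.74% and 0.719%. Fewer calls there follow from the larger spread assumed. No paired analysis was possible because each germ layer has 1 library, and for the same reason no library could be left out. At this depth *Sfrp5* and *Lgr5* in epiblast rest on 33 and 143 reads.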

Other observations

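The Frizzled receptors differed between the layers by gene. *Fzd2* and *Fzd7* were the most abundant of them in every library. *Fzd2* had an RPKM of 18.2 in the endoderm, 48.2 in the mesoderm and 38.6 in the epiblast. *Fzd7* had 21.2, 35.3 and 34.4. *Fzd5*, *Fzd6* and *Fzd8* were highest in endoderm, with an RPKM of 13.5, 7.09 and 9.74 there against 1.33, 0.575 and 2.77 in mesoderm and 4.72, 2.54 and 3.27 in epiblast. *Fzd10* was highest in epiblast at 19.7, against 6.56 in mesoderm and 0.871 in endoderm. *Fzd4* had 5.99 in the endoderm, 8.19 in the mesoderm and 0.775 in the epiblast. Of the co-receptors, which were named after their values were seen, *Lrp5* had 52.7 in the endoderm, 17.6 in the mesoderm and 23.8 in the epiblast, whereas *Lrp6* had 13.6, 13.6 and 12.8. *Ptk7*, a co-receptor of the planar cell polarity branch, had 27.1 in the endoderm, 83.9 in the mesoderm and 90.0 in the epiblast. Between endoderm and mesoderm 15 of the 16 receptor genes were tested, with 4 called higher in endoderm and 6 higher in mesoderm, against 14.4% and 8.56% of all genes tested. Between endoderm and epiblast 13 were tested, with 5 called higher in each, against 15.7% and 8.94%. Between mesoderm and epiblast 12 were tested, with 2 called higher in mesoderm and 1 in epiblast, against 5.30% and 5.02%.

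Among the other nuclear factors of the pathway, *Aes*, a short member of the Groucho family, stood apart in mesoderm. It had 3623 reads in the endoderm, 473 in the mesoderm and 3207 in the epiblast, at an RPKM of 64.6, 8.60 and 55.8. Endoderm was 7.51-fold above mesoderm (6.82 to 8.28) and epiblast 6.49-fold above mesoderm (5.89 to 7.16), and both pairs met the criteria. *Tle3* went the other way, with an RPKM of 26.3 in the endoderm, 56.4 in the mesoderm and 43.4 in the epiblast, and met the criteria between endoderm and mesoderm at 2.15-fold.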
